A study of Danio rerio with 8 samples.

Results

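Genes that direct and mark myeloid cells, the innate immune branch of the blood, were examined in 8 RNA sequencing libraries from zebrafish embryos. The members were 10 names chosen for their known roles: the transcription factors SPI1 (PU.1), cebpa, cebpb and irf8, the receptor csf1ra, and the leukocyte genes lcp1, coro1a, mpx, lyz and mpeg1.1. Rows of the count table were taken where the gene symbol matched a name without regard to case or with a paralog letter added, and 8 names matched 9 of 32020 rows. SPI1 matched the rows SPI1 and spi1a, and no row carried the name mpx or mpeg1.1. A gene can stand in the table under another name, so mpx is not shown to be absent or unmeasured. In addition, 3 rows carry the name MPEG1 without telling the copies of that gene apart, and they are described beside the members as rows outside the rule. Of the 9 member rows, 7 passed the filter on low counts and were tested, and spi1a and IRF8 fell below it.

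The 4 treated libraries (numbered 5 to 8) came from embryos exposed to 7,17-diHDPAn-3, a lipid made by adding hydroxyl groups to an omega-3 fatty acid, and the 4 control libraries (1 to 4) from embryos labelled as controls. All 8 are labelled as embryo tissue and as erythrocyte progenitors and erythrocytes, and gata_1 stands in every library name. The library name of control 4 holds an extra tag that the other control names lack, and its meaning is not given. The design text names AB wild type fish and the reporter lines Tg(gata1: Dsred) and Tg(CD41:GFP), an exposure of 1.5 µM between 11 and 36 hours post fertilization in a screen, and a dose search between 1 and 1.75 µM, with the lipid in ethanol. It is not stated which line, dose, hours or control solution these libraries had, whether cells were sorted, how many embryos were pooled, or whether the libraries derive from different clutches. What the p-values measure is thus the variation among these libraries, and that may be technical.

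PU.1, encoded by SPI1, commits blood progenitors to the myeloid fate, and in the zebrafish embryo it opposes the red cell factor Gata1. C/EBP factors act with PU.1 on myeloid genes, and Irf8 favours macrophages over neutrophils. Macrophages are known by Csf1r and the pore protein Mpeg1, neutrophils by myeloperoxidase and lysozyme, and leukocytes in general by the actin-binding proteins L-plastin (Lcp1) and coronin 1A. The same genes are not all confined to leukocytes, since csf1ra also acts in yellow pigment cells of zebrafish and C/EBP factors, in mammals, also in liver, fat and epithelia.

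Libraries held 2502636 to 4794081 counts, and levels are given as CPM, counts scaled to the library size by TMM. The libraries were not of pure red cells: 13 rows of erythroid markers summed to 2528 to 6489 CPM in treated and 2821 to 6334 CPM in control libraries, while 24 skeletal muscle rows summed to 9611 to 21554 CPM in treated and 1687 to 15148 CPM in control libraries. The 17 endothelial rows summed to 217.1 to 323.3 CPM in treated and 149.9 to 203.2 CPM in control libraries, without overlap. In all 8 libraries 3 of the muscle rows were at 0, and no erythroid or endothelial row was. In samples of many cell types, fewer cells of a type and less RNA per cell cannot be told apart.

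edgeR's quasi-likelihood test called 0 of 14249 rows (0%) at the adjusted threshold of 0.05, and with them 0 of the 7 tested member rows. DESeq2 called 18 of the 8723 rows to which it gave an adjusted p (0.206%), with no member among them. Without adjustment, 987 rows (6.93%) had an edgeR p of 0.05 or less, 3.63% with higher and 3.3% with lower treated values, and 1 of them was a member, CEBPB, with lower values. The CPM ranges of treated and control libraries did not overlap in 659 rows (4.62%), 2 of them members: SPI1, higher in treated libraries like 2.34% of all rows, and CEBPB, lower like 2.29% of all rows. Their median log2 fold change over the 7 rows was -0.22, with 2 higher and 5 lower, against -0.005 over all rows tested. With SPI1 and CEBPB on opposite sides, the members did not share 1 direction.

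**Figure D1:**
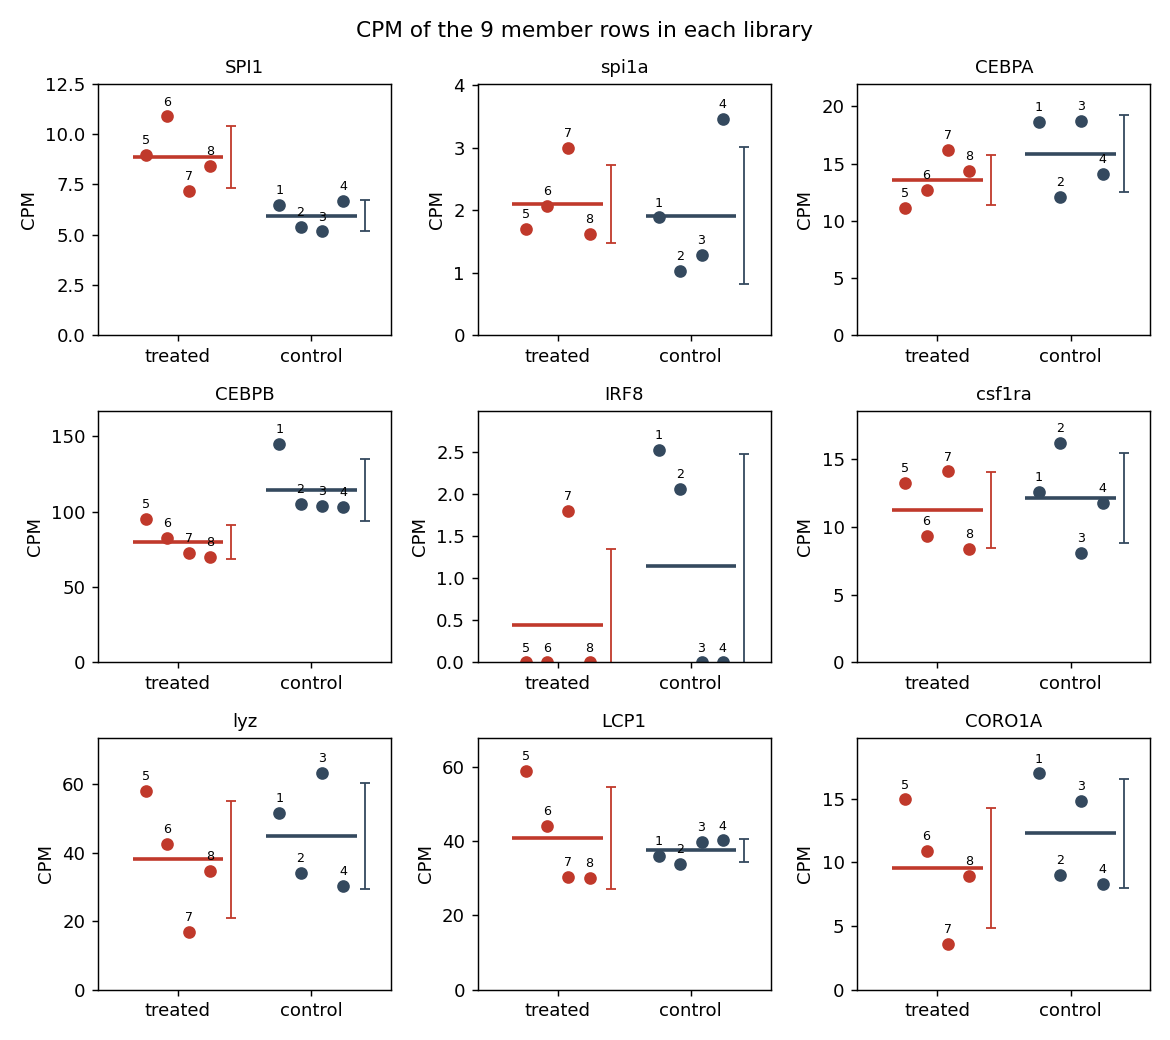
CPM of the 9 member rows (y axis, linear, from 0) in treated (left) and control (right) libraries. Each point is 1 library with its number, horizontal lines are group means and error bars are 1 SD of 4 libraries, cut at 0 for IRF8. Treated and control points are separate for SPI1 and CEBPB and mixed for the other 7 rows.

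Among the transcription factors, SPI1 stood at 8.96, 10.9, 7.20 and 8.40 CPM in treated libraries 5 to 8, against 6.50, 5.39, 5.16 and 6.69 CPM in control libraries 1 to 4. Every treated library lay above every control, and the closest pair was treated 7 and control 4. The means were 8.86 ± 1.54 CPM in treated and 5.94 ± 0.772 CPM in control libraries (SD, n = 4 each), a log2 fold change of 0.57 ± 0.30 (SE, 95% interval -0.07 to 1.21) that did not pass edgeR's quasi-likelihood test (adjusted p = 0.756). DESeq2 gave an unadjusted p of 0.102 and no adjusted p. These values rest on 21 to 42 counts per treated library and 16 to 31 counts per control library. Counting alone would give SDs of 1.66 CPM in treated and 1.22 CPM in control libraries, no smaller than those seen.

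The paralog spi1a, a second PU.1 gene of the fish, had 4, 8, 10 and 6 counts in treated libraries 5 to 8 and 9, 4, 4 and 15 counts in control libraries 1 to 4. Its means of 2.1 ± 0.629 CPM in treated and 1.92 ± 1.09 CPM in control libraries (SD, n = 4 each) overlapped, and it was not tested. In the RefSeq annotation of a later build, GRCz12tu, spi1b (whose synonyms include spi1) overlaps the gene si:ch73-314g15.3. That gene's own row held 0 to 8 counts in treated and 0 to 11 counts in control libraries.

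CEBPB, a bZIP factor also induced by inflammation, showed the lower values: 95.1, 82.4, 72.8 and 69.9 CPM in treated libraries 5 to 8, against 145.2, 105.2, 103.9 and 103.0 CPM in control libraries 1 to 4. All treated libraries lay below all controls. Controls 2, 3 and 4 were close to each other, and control 1 stood well above them. The means were 80.1 ± 11.4 CPM in treated and 114.3 ± 20.6 CPM in control libraries (SD, n = 4 each), a ratio of 0.698 in the fit. The log2 fold change of -0.52 ± 0.15 (SE, 95% interval -0.83 to -0.20) had an unadjusted p of 0.00321 and did not pass after adjustment over all rows in edgeR (adjusted p = 0.562) or DESeq2 (0.189). Without control 1 it was -0.38 with an unadjusted edgeR p of 0.0171. CEBPB had 223 to 318 counts per treated library and 322 to 693 counts per control library, and its SDs were above the 5.07 CPM in treated and 5.35 CPM in control libraries that counting alone would give.

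CEBPA, which drives early myeloid differentiation, had 11.1, 12.7, 16.2 and 14.4 CPM in treated libraries 5 to 8 and 18.6, 12.1, 18.7 and 14.1 CPM in control libraries 1 to 4. The groups overlapped, with controls 1 and 3 highest. Its log2 fold change was -0.22 ± 0.24 (SE, 95% interval -0.73 to 0.30, edgeR adjusted p = 0.899). The further rows of the C/EBP family that are named here outside the rule for named genes, overlapped between groups as well. CEBPD stood at 61.0 ± 11.2 CPM in treated and 68.6 ± 20.6 CPM in control libraries (SD, n = 4 each), and control 1 was again the highest, at 98.9 CPM. The row cebpg, next to cebpa in the RefSeq annotation, stood at 59.1 ± 6.67 CPM in treated and 68.5 ± 10.2 CPM in control libraries (SD, n = 4 each). The log2 fold changes of CEBPD and cebpg were -0.17 ± 0.20 and -0.21 ± 0.15 (SE, edgeR adjusted p = 0.904 and 0.830). The row cebp1 had 0 to 10 counts in treated and 0 to 17 counts in control libraries and was not tested. Whether CEBPB differed from its relatives in response was not tested.

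IRF8 was near the limit of detection. It had 6 counts in treated 7 and 0 in the other 3 treated libraries, against 12 counts in control 1, 8 in control 2 and 0 in controls 3 and 4. A count of 0 allows up to 3 counts, that is 0.777 to 1.28 CPM in the treated libraries at 0 and 0.693 to 0.968 CPM in the control libraries at 0, as far as counting error goes. No difference in IRF8 could be detected at this depth.

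The receptor csf1ra, through which Csf1 and Il34 sustain macrophages, had 13.2, 9.33, 14.1 and 8.40 CPM in treated libraries 5 to 8 and 12.6, 16.2, 8.06 and 11.8 CPM in control libraries 1 to 4. The lowest and the highest value both came from controls. Its log2 fold change was -0.13 ± 0.29 (SE, 95% interval -0.73 to 0.48, edgeR adjusted p = 0.958). Its paralog csf1rb had 9 counts in treated 6 and 0 in the other 7 libraries. Of the ligands, csf1a stood at 3.61 ± 3.53 CPM in treated and 5.55 ± 2.24 CPM in control libraries (SD, n = 4 each, edgeR adjusted p = 0.906), with 0 counts in treated 5. The ligand csf1b had 0 to 9 counts in treated and 0 to 16 counts in control libraries, il34 had 0 to 17 counts in treated and 0 to 19 counts in control libraries, and neither was tested.

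For the macrophage pore protein Mpeg1, the names do not tell which row is the member mpeg1.1. Of the 3 rows named MPEG1, only ENSDARG00000043093 was tested, and it may be another copy. It had 3.84, 3.11, 8.39 and 8.94 CPM in treated libraries 5 to 8 and 6.92, 7.96, 5.81 and 2.54 CPM in control libraries 1 to 4. Values from low to high occurred in both groups, and the log2 fold change of 0.08 ± 0.45 (SE, 95% interval -0.87 to 1.03, edgeR adjusted p = 0.984) is wide in both directions. ENSDARG00000055290 had 0, 4, 0 and 5 counts in treated libraries 5 to 8 and 7, 15, 3 and 6 counts in control libraries 1 to 4, and was not tested. ENSDARG00000078569 had 0 counts in all 8 libraries.

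Lysozyme C, encoded by lyz and stored in the granules of early myeloid cells and neutrophils, varied more between libraries of a group than between groups. It had 58.0, 42.5, 16.8 and 34.7 CPM in treated libraries 5 to 8 and 51.5, 34.1, 63.2 and 30.2 CPM in control libraries 1 to 4. The means were 38.0 ± 17.1 CPM in treated and 44.8 ± 15.4 CPM in control libraries (SD, n = 4 each), where counting alone would give SDs of 3.54 CPM in treated and 3.43 CPM in control libraries. Its log2 fold change was -0.24 ± 0.35 (SE, 95% interval -1.01 to 0.52, edgeR adjusted p = 0.928).

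CORO1A, the coronin of leukocytes, had the same 3 libraries at the top as lyz, in another order. It had 14.9, 10.9, 3.60 and 8.94 CPM in treated libraries 5 to 8 and 17.0, 8.98, 14.8 and 8.31 CPM in control libraries 1 to 4. Control 1 was highest, before treated 5 and control 3, where lyz had control 3 before treated 5 and control 1, and treated 7 was the lowest for both. In edgeR the log2 fold change was -0.37 ± 0.38 (SE, 95% interval -1.17 to 0.42, edgeR adjusted p = 0.878). The gene overlaps the epidermal claudin cldni in the RefSeq annotation of GRCz12tu, and the strand setting of the counting is not given. The row cldni had 31.1, 47.4, 36.3 and 58.5 CPM in treated libraries 5 to 8 and 67.1, 43.9, 49.3 and 40.9 CPM in control libraries 1 to 4, with control 1 highest, as for CORO1A, and treated 5 lowest. The part of shared reads in the CORO1A values was not tested.

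LCP1, the actin-bundling L-plastin, had 58.9, 44.0, 30.3 and 30.1 CPM in treated libraries 5 to 8 and 36.0, 33.9, 39.7 and 40.2 CPM in control libraries 1 to 4. The 4 controls lay inside the range of the treated libraries. The SD was 13.7 CPM in treated and 3.01 CPM in control libraries, where counting alone would give 3.67 CPM in treated and 3.09 CPM in control libraries. The log2 fold change was 0.12 ± 0.21 (SE, 95% interval -0.34 to 0.57, edgeR adjusted p = 0.944), and it was -0.10 without treated 5. The RefSeq gene lcp1 overlaps lrrc63 in GRCz12tu, and no row of the table was matched to that name.

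**Figure D2:**
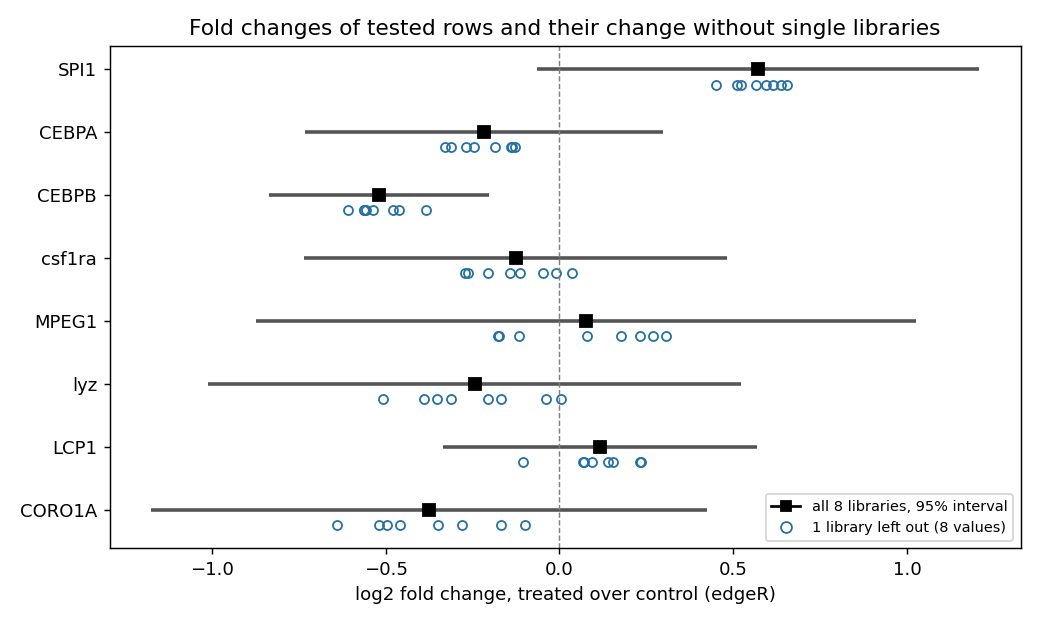
Log2 fold change of treated over control libraries from edgeR (x axis) for the 7 tested member rows and the tested MPEG1 row. Squares and bars give the value of all 8 libraries with its 95% interval, and open circles the 8 values with 1 library left out. The CEBPB interval of -0.83 to -0.20 lies below 0, that of SPI1 reaches -0.07, and the other 6 span 0.

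The libraries with the most lyz and CORO1A were also those with the most erythroid RNA. The 13 erythroid rows summed to 6489, 3845, 2742 and 2528 CPM in treated libraries 5 to 8 and to 5774, 3452, 6334 and 2821 CPM in control libraries 1 to 4. Treated 5 and controls 1 and 3 were again the 3 highest, and treated 6 and control 2 came next, in this order, in the erythroid sum and in CORO1A. The red cell factor gata1a stood at 39.2, 6.74, 2.40 and 5.15 CPM in treated libraries 5 to 8 and at 22.6, 15.1, 22.9 and 9.0 CPM in control libraries 1 to 4, with the same 3 libraries on top. None of the other tested member rows had these 3 libraries on top. Control 3 was the lowest library for SPI1 (5.16 CPM) and csf1ra (8.06 CPM). CEBPA was highest in controls 3 and 1 and lowest in treated 5, while LCP1 was highest in treated 5. The part of blood content in the values of lyz and CORO1A was not tested.

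**Figure D3:**
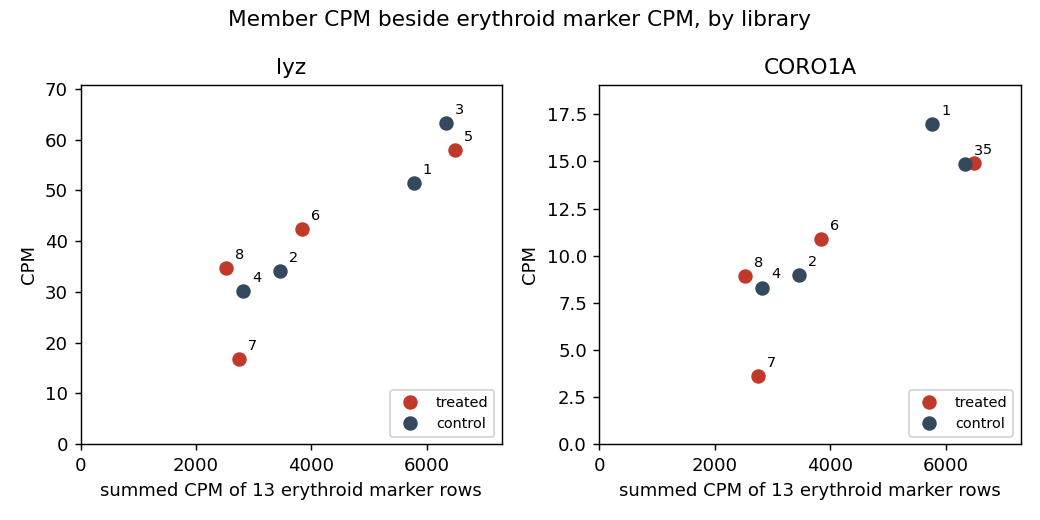
CPM of lyz and CORO1A (y axes, linear, from 0) beside the summed CPM of 13 erythroid marker rows (x axis) in each library, numbered as in the text. The 3 libraries with the highest erythroid sums (treated 5, control 1 and control 3) are the 3 highest for lyz and for CORO1A.

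Over the 8 libraries, the rows with the most similar pattern were sought for each tested member among 10663 rows with a gene symbol and a mean of at least 5 CPM, by Pearson's r of log2 CPM. CORO1A and lyz were each other's nearest row (r = 0.974), followed for both by csrnp1a among the nearest 3. For SPI1 the nearest rows were FLI1, an ETS factor of endothelium and blood (r = 0.963), phactr4b (0.963) and PRPF38A (0.948). CEBPB came nearest to nup153, NATD1 and mhc1zba (0.956, 0.944 and 0.942). LCP1, csf1ra and CEBPA had PDIK1L, ccdc82 and khnyn as nearest rows (0.929, 0.954 and 0.945). All these r values are the highest of many over 8 libraries that share depth and tissue content, so they describe likeness only.

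The endothelial rows summed higher in treated libraries, where SPI1 also stood higher. They included stab2 and MRC1, scavenger receptors of venous and lymphatic endothelium in zebrafish. Here stab2 stood at 46.7 ± 12.6 CPM in treated and 16.1 ± 5.11 CPM in control libraries, and MRC1, whose mammalian counterpart also marks macrophages, at 25.3 ± 8.09 CPM in treated and 4.90 ± 2.82 CPM in control libraries (SD, n = 4 each). Of 15 tested endothelial rows 13 were higher and 2 lower (median log2 fold change 0.73), and 10 had an unadjusted edgeR p up to 0.05, all higher. DESeq2 called stab2 and MRC1 (adjusted p = 0.000101 and 2.13e-05), and edgeR did not (adjusted p = 0.104 and 0.0768). The macrophage gene csf1ra and the tested MPEG1 row did not separate the groups as stab2 and MRC1 did. The other detected MPEG1 row, with 0 to 5 counts in treated and 3 to 15 counts in control libraries, was not tested. The scavenger receptor marco had 0 to 6 counts in treated and 0 to 13 counts in control libraries, and c1qa had 0 counts in all 8 libraries. Both were too low to compare the groups. Of 14 tested macrophage and microglia rows, 7 were higher and 7 lower. The part of macrophages in the MRC1 values was not tested. Within the groups, the endothelial sum and SPI1 did not follow the same order. Among controls, control 3 had the highest endothelial sum (203.2 CPM) and the lowest SPI1 (5.16 CPM). Among treated libraries, the sum was highest in treated 8 (323.3 CPM) and SPI1 in treated 6 (10.9 CPM). The part of endothelial content in the SPI1 values was not tested.

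The wider list of myeloid transcription factors had 20 tested rows, 8 higher and 12 lower (median log2 fold change -0.14). CEBPB was the 1 row at an unadjusted edgeR p up to 0.05, and 0 rows passed in edgeR or DESeq2. Next in p, NR4A1, an orphan nuclear receptor, stood at 50.3 ± 7.21 CPM in treated and 62.9 ± 6.90 CPM in control libraries (SD, n = 4 each). Its log2 fold change was -0.32 ± 0.15 (SE, edgeR adjusted p = 0.723), and the groups overlapped.

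Colony stimulating factors and their receptors had 6 tested rows, 1 higher and 5 lower, with a median of -0.25 and 0 rows at an unadjusted edgeR p up to 0.05. CSF3R, the granulocyte growth factor receptor, had 7.25, 3.11, 4.50 and 4.88 CPM in treated libraries 5 to 8 and 7.33, 8.47, 10.3 and 5.31 CPM in control libraries 1 to 4. Treated 5 lay among the controls, and the other 3 treated libraries lay below all controls. Its log2 fold change was -0.69 ± 0.37 (SE, edgeR adjusted p = 0.761). KIT, the receptor of stem cell factor, stood at 8.17 ± 1.80 CPM in treated and 10.2 ± 2.13 CPM in control libraries (SD, n = 4 each, edgeR adjusted p = 0.863).

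Macrophage and microglia genes had 14 tested of 40 matched rows, 7 higher and 7 lower, with a median of -0.02 and 0 rows at an unadjusted edgeR p up to 0.05. The rows of smallest p were AXL and mertka, receptors for apoptotic cells, the apolipoprotein apoc1 and the sugar phosphate transporter SLC37A2, with edgeR adjusted p of 0.850 to 0.869. Mertka had 4.27, 5.18, 14.1 and 7.86 CPM in treated libraries 5 to 8 and 7.12, 5.13, 5.81 and 5.54 CPM in control libraries 1 to 4, and treated 7 stood apart. Matched rows at 0 counts throughout numbered 10.

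Neutrophil genes had 18 tested of 28 matched rows, 10 higher and 8 lower, with a median of 0.01 and 0 rows at an unadjusted edgeR p up to 0.05. Of the 29 entries of this list 6 matched no row by name, mpx among them, so the counts above leave mpx out. Outside the list and the rule for named genes, a row carries the name of another leukocyte peroxidase, EPX (ENSDARG00000019521). It stood at 62.5 ± 25.2 CPM in treated and 52.3 ± 14.9 CPM in control libraries (SD, n = 4 each). Its log2 fold change was 0.25 ± 0.29 (SE, edgeR adjusted p = 0.905). Whether this row is the mpx gene was not tested. Not all matched rows are confined to neutrophils, so the median describes the list and not the neutrophils. MMP9, a matrix protease of neutrophils and of inflamed epithelium, had 44.4, 9.33, 14.1 and 17.6 CPM in treated libraries 5 to 8 and 39.8, 37.0, 55.8 and 27.5 CPM in control libraries 1 to 4. Treated 6, 7 and 8 lay below all controls and treated 5 above 3 of them. The highest libraries for MMP9, control 3, treated 5 and control 1, were also those with the highest erythroid sums. The part of blood content in the MMP9 values was not tested. For MMP9 the log2 fold change was -0.94 ± 0.43 (SE, edgeR adjusted p = 0.727). Its unadjusted p was 0.0565 in edgeR, 0.0191 in DESeq2 and 0.00435 in limma-voom, and its adjusted p was 0.442 in DESeq2 and 0.498 in limma-voom. The proteoglycan srgn of granules stood at 23.4 ± 11.1 CPM in treated and 16.7 ± 4.62 CPM in control libraries, nccrp1 at 5.54 ± 1.41 CPM in treated and 7.59 ± 1.56 CPM in control libraries, and SMS, the spermine synthase, at 30.1 ± 3.97 CPM in treated and 23.9 ± 2.09 CPM in control libraries (SD, n = 4 each, edgeR adjusted p = 0.844, 0.838 and 0.774).

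Of the phagocyte NADPH oxidase, which makes the oxidative burst, 2 of 6 rows could be tested, both higher. NCF1 stood at 18.9 ± 8.35 CPM in treated and 15.9 ± 8.09 CPM in control libraries, and rac2, the haematopoietic Rac GTPase, at 8.89 ± 1.60 CPM in treated and 6.01 ± 3.78 CPM in control libraries (SD, n = 4 each, edgeR adjusted p = 0.950 and 0.834). The catalytic subunit cybb had 5 to 18 counts in treated and 3 to 24 counts in control libraries and was not tested.

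Genes of leukocyte signalling and actin had 19 tested of 36 matched rows, 12 higher and 7 lower, with a median of 0.08. SYK, a tyrosine kinase of immune receptor signalling, was the 1 row at an unadjusted edgeR p up to 0.05 and the 1 row without overlap, which is 5.26% of the list against 6.93% and 4.62% of all rows. It had 8.96, 11.7, 6.90 and 4.34 CPM in treated libraries 5 to 8 and 1.89, 3.34, 4.19 and 4.16 CPM in control libraries 1 to 4. Treated 8 lay just above controls 3 and 4. The log2 fold change of 1.23 ± 0.42 (SE) did not pass edgeR's test (adjusted p = 0.576) and rests on 9 to 45 counts per library. The actin-capping CAPG stood at 21.6 ± 6.55 CPM in treated and 30.3 ± 5.03 CPM in control libraries, and the phosphatase PTPN6 at 4.91 ± 0.512 CPM in treated and 6.77 ± 1.16 CPM in control libraries (SD, n = 4 each, edgeR adjusted p = 0.729 and 0.830). For CAPG the unadjusted p was 0.0576 in edgeR and 0.0481 in limma-voom. The defining leukocyte surface gene ptprc (CD45) had 0, 10, 6 and 8 counts in treated libraries 5 to 8 and 7, 0, 11 and 13 counts in control libraries 1 to 4, and was not tested.

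**Figure D4:**
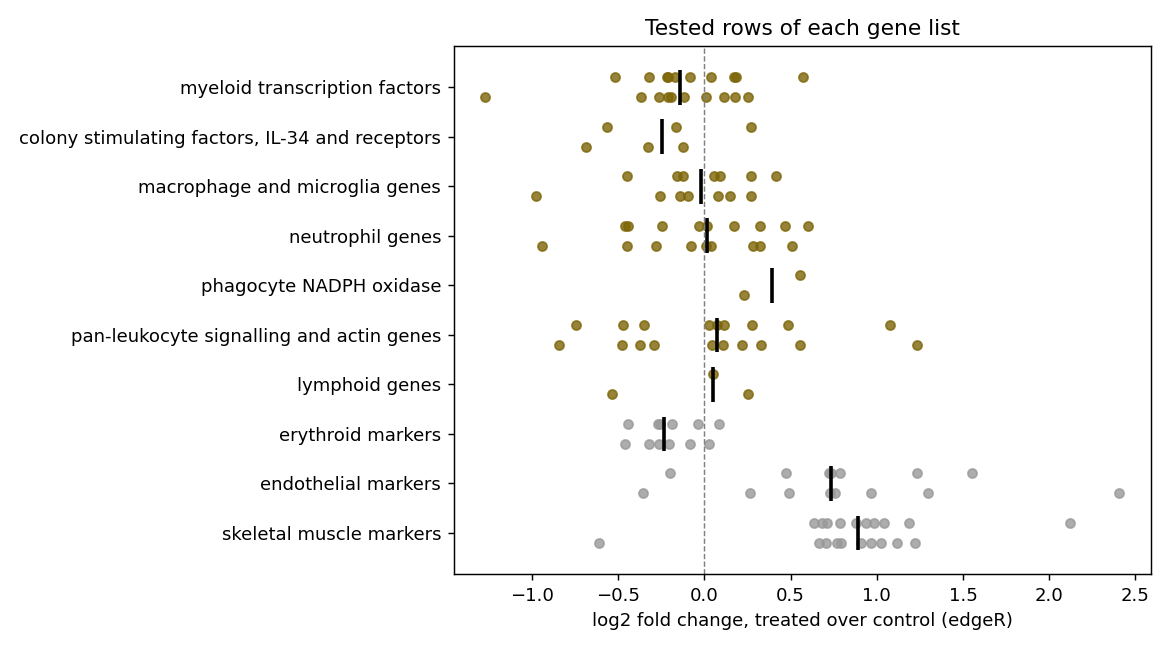
Log2 fold change of treated over control libraries (x axis) of the tested rows of 7 myeloid or leukocyte lists and, in grey, 3 lists of other cell types. Points are rows, black bars list medians and the dashed line the median of all 14249 rows, -0.005. Medians of the erythroid, endothelial and muscle lists are -0.23, 0.73 and 0.89, and those of the myeloid and leukocyte lists lie between -0.25 and 0.39.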

How the data were processed

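One table of whole-number counts per Ensembl gene ID, covering the 8 libraries, is what the authors deposited. Per the labels' protocols, total RNA was made into stranded low-input libraries and read as 100 bp pairs. The submitters' processing notes name DESeq2 1.22.1, StringTie 1.3.3b, HISAT2 2.1.0, Trim Galore 0.5.0, CASAVA 1.8.2 and the build GRCz11, with neither their roles nor their order. How the counting treated strand and which annotation it used is not given in the sources used here, which leaves overlapping, antisense and near-identical genes uncertain. Symbols were found for 28975 of 32020 rows in the supplied name table, and the rest, with 23.8% to 26.6% of counts, stayed in the test. The number of sample columns not used was 0.

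Titles gave the groups. After filterByExpr and TMM scaling, 14249 rows were tested in edgeR 4.0.16 under R 4.3.3 with a robust quasi-likelihood F-test, no covariate and Benjamini-Hochberg adjustment. Standard errors came from the F statistic and 95% intervals from its degrees of freedom. Counting SDs and floors (3 counts) assume that the deposited whole numbers are read counts. They cover counting error only, as PCR reads are not independent molecules. The alternatives changed the scaling, the filter, the tool (DESeq2 1.42.0, or voom in limma 3.58.1), the robust dispersion, or left out 1 library. The edgeR, DESeq2 and limma-voom fits were also run on simulated counts, and the other steps were not.

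The members, 14 further gene lists and the tests were chosen with earlier results of these data known, so no adjustment over members alone and no set test is given. Among 293 list entries, 214 matched by symbol, 48 once a paralog letter or number was dropped, and 31 not at all. Named are every member row, the 4 rows of smallest p in each myeloid or leukocyte list, a fixed set of ligands, receptors and markers, and the nearest rows of each member. 1 gene that this rule takes is not reported here.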

Additional observations from a re-analysis of the deposited data

Results flagged for a closer look

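Of the 4 values per group of the member rows and the named genes of the lists, 1 library stood far from the other 3 in 9 groups of 92 checked, where chance marks about 1 in 20 for values of a normal spread. That rate does not apply to IRF8, marco and csf1rb, where any count in 1 library marks a group otherwise at 0. CEBPB had 145.2 CPM in control 1, against 103.0 to 105.2 CPM in the other controls. IRF8 and marco each had 1.80 CPM in treated 7 and 0 in the other treated libraries, and csf1rb had 2.33 CPM in treated 6 and 0 in the others. For gata1a, treated 5 held 39.2 CPM, and 2.40 to 6.74 CPM were found in the other treated libraries. SLC37A2 was low in treated 5, at 18.3 CPM against 29.0 to 30.6 CPM in the other treated libraries. Among controls, AXL had 49.8 CPM in control 2 (29.4 to 32.6 CPM in the others), apoc1 20.3 CPM in control 3 (1.39 to 2.82 CPM) and bcl11ba 166.7 CPM in control 4 (88.2 to 96.4 CPM).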

How the results depend on the processing

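No paired analysis was possible because treated and control libraries share no replicate number. Over 15 alternatives the count of member rows called stayed at 0, and CEBPB alone among them had an unadjusted p of at most 0.05. CEBPB ran from -0.61 (without treated 5) to -0.38 (without control 1) on the log2 scale, SPI1 from 0.45 (without treated 6) to 0.66 (without treated 7), CEBPA from -0.33 to -0.13 and CORO1A from -0.64 (without treated 5) to -0.10 (without treated 7), with no change of sign. With 1 library left out, the sign turned for LCP1 (-0.10 without treated 5, up to 0.24) and csf1ra (-0.27 to 0.036, the highest without control 2). It also turned for lyz (-0.51 to 0.0042, the highest without treated 7). The tested MPEG1 row ran from -0.18 to 0.31 and was negative without treated 7, treated 8 or control 4. The median of the member rows ran from -0.33 to -0.10. Rows called over the whole table were 0 with all libraries, 4 with no low-count filter, 2 with a filter of 5 CPM, 18 in DESeq2 and 0 to 1 with 1 library left out. For SPI1, with at most 42 counts in any library, counting error is as large as the spread between libraries. CORO1A and the tested MPEG1 row vary by more than counting gives. IRF8, spi1a and ptprc had too few counts for the filter of the main test. With no low-count filter all 9 member rows were tested, and 0 were called.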

Other observations

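Lymphoid genes were nearly absent: 3 of 17 matched rows were tested and 7 had 0 counts in all libraries. Of the 3, bcl11ba, which is also expressed in neurons, stood at 76.6 ± 30.6 CPM in treated and 111.2 ± 37.2 CPM in control libraries, PAX5, also a gene of the midbrain-hindbrain boundary, at 19.2 ± 3.78 CPM in treated and 18.3 ± 2.17 CPM in control libraries, and IKZF1, a lymphoid and early blood factor, at 4.54 ± 4.23 CPM in treated and 3.72 ± 1.54 CPM in control libraries (SD, n = 4 each, edgeR adjusted p = 0.806, 0.978 and 0.966). Thrombocyte markers had 1 of 6 tested rows higher and 5 lower, with a median log2 fold change of -0.09.

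Of the other tissues, epidermal markers had 9 rows higher and 6 lower (median 0.03), neural markers 5 higher and 10 lower (-0.03) and liver and yolk markers 1 higher and 5 lower (-1.30). The liver and yolk rows summed to 77.5 to 182.4 CPM in treated and 99.3 to 468.0 CPM in control libraries, with the highest value in control 3. In edgeR, 0 rows of these lists passed the adjusted threshold.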
